A study of Mus musculus with 68 samples.

Results

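Newborn brain of PS-NA mice was compared with newborn brain of wild-type (WT) mice on 8 of the 68 Affymetrix Mouse Genome 430 2.0 arrays of the series. The 4 PS-NA and 4 WT arrays were chosen by genotype and age alone, and each group held 2 arrays of cerebellum and 2 of cerebrum from mice of 0 days. PS-NA mice lack the endogenous prosaposin gene and carry a prosaposin transgene that gives a reduced level of the protein, whereas WT mice have an intact gene. The promoter of the transgene was not given in the sources used here. Both groups were on the FVB strain background, and each array was hybridized with RNA pooled from 3 mice, so that 6 mice stood behind the 2 pools of a genotype and region. The study's methods give 6 mice per genotype and age, which implies that cerebella and cerebra came from the same mice, and which 3 of them made up each pool was not given in the sources used here. Beside them stood 4 newborn pools of PS-/- mice, which have no prosaposin and are also FVB, and 24 pools of PS-NA and WT brain at 4, 12 and 18 wks. The comparison asks what already differs at birth, before the later ages that the study follows.

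Prosaposin is a precursor that is cut in the lysosome into saposins A, B, C and D, small proteins that present sphingolipids to the hydrolases that degrade them. Without them, glucosylceramide, lactosylceramide and other glycosphingolipids accumulate in the nervous system. Uncut prosaposin is also secreted and is known for trophic effects on neurons.

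The labelled regions were borne out by their defining genes. En2, a homeobox gene of midbrain and cerebellum, had signals of 2249 to 3887 in the 4 cerebellar pools and 35.1 to 176 in the 4 cerebral pools, and Tbr1, a transcription factor of cortical neurons, had 21.5 to 128 and 4174 to 6955. Signals are the scaled intensities of a probe set, the group of short probes for 1 transcript, and array medians of these 8 arrays were 263.5 to 340.9. The 2 WT cerebellar pools were less alike than any other pair (r = 0.927 over probe sets, against 0.957 to 0.963), and the first of them correlated best with the first WT cerebral pool (r = 0.961). The pools also differed in sex makeup, as Xist, which is transcribed from the inactive X chromosome of females, had a signal of 9344 and 21691 in the first WT pool of cerebellum and cerebrum, 130 in the second WT cerebral pool, 2033 in the second WT cerebellar pool and 994 to 2337 in the PS-NA pools. The 3′/5′ signal ratio of actin, a measure of RNA integrity, was 1.15 to 1.18 in PS-NA pools. In WT pools it was 1.23 and 1.22 in cerebella and 1.22 and 1.16 in cerebra. Only the second WT cerebral pool thus lay among the PS-NA pools.

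Few transcripts were called as different between newborn PS-NA and WT brain, by a test that found 50% of simulated 4-fold changes. In limma's moderated test on log2(signal + 16) with brain region as a term, 40 of 45037 probe sets (0.0888%) were called at an adjusted p under 0.05, of which 28 (0.0622%) were higher and 12 (0.0266%) lower in PS-NA pools. Psap, the Nfi transcription factor gene Nfia and Creg2 were among those lower, and the RNA helicase gene Dhx30, Arhgap26 and the protocadherin gene Pcdhb9 among those higher. The size of the difference was 0.90 to 4.30 on the log2 scale, so none of the called differences was below 1.87-fold. At an unadjusted p under 0.05 there were 4920 probe sets (10.9%). At the looser thresholds of the study's methods, an adjusted p of at most 0.2 and a 1.5-fold change, 139 probe sets passed (0.309%), 87 higher (0.193%) and 52 lower (0.115%). The study set these thresholds on contrasts within each region, from a model over all ages, so its newborn counts are of another kind. Of the 40 called probe sets, 39 had 4 PS-NA pools all above or all below the 4 WT pools in normalized values, Gli2 being the exception, while over all probe sets tested 2.82% were higher and 2.45% lower in this way. The same pools gave the calls, so this separation is no independent support. P-values measure the spread between pools of mice, and this fit treats cerebellar and cerebral pools as independent although, by those numbers, they share mice. With pools of 1 genotype and number taken as 1 subject, as a random term, 17 probe sets were called, all among the 40. Their named genes were Creg2, Psap, Nfia, Pisd-ps3, Eif5, Wdr82, Pik3r4, Pigo, Soga3, Dhx30 and Pcdhb9, and the remaining called genes, with Clasp2, Nnt, Cx3cl1, Gli2, Arhgap26, Nck2 and Zscan2 among them, lost their call there.

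The count depended on single pools. With 1 pool left out at a time it ran from 12, without the first PS-NA cerebellar pool, to 123, without the second WT cerebellar pool, and it was 33 without the first WT cerebellar pool and 59 without the second WT cerebral pool. It was 13, 14, 15 and 17 without the other PS-NA cerebellar pool, the second and the first PS-NA cerebral pool and the first WT cerebral pool. All 40 probe sets kept their sign in each of these fits, which reuse pools that chose them. Of the 40, 12 were called whichever pool was left out, 9 of them with a name. Those 9 belonged to 7 genes, which were Psap, Nfia, Pisd-ps3, Pik3r4, Soga3, Dhx30 and Pcdhb9. With the Xist signal as a covariate 30 probe sets were called, 29 of them among the 40, and with the actin ratio 4. The actin ratio was nearly split by genotype, so the fit with it cannot separate the ratio from genotype.

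Of the 40 probe sets, 30 carried 1 gene symbol, 7 carried several and 3 none, and only the 30 are named, for 27 genes. When each gene was represented by its brightest probe set, that with the highest mean log2 signal over the 8 arrays, 15 of 18193 genes (0.0824%) were called, 12 higher (0.066%) and 3 lower (0.0165%). The probe sets nearest the threshold inside it were 9330159F19Rik (adjusted p = 0.0457) and one without a single symbol (0.0491), and the nearest named gene outside it was Rsrp1 (1.69, adjusted p = 0.0627). The other 12 genes were called by a probe set other than their brightest and are named here because their values were seen: Nnt, Rbm39, Eif5, Nck2, Arhgap26, Dhx30, Pcdhb4, Alas1, 9330159F19Rik and Cx3cl1, besides Nfia and Clasp2, which the study names.

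**Figure D1:**
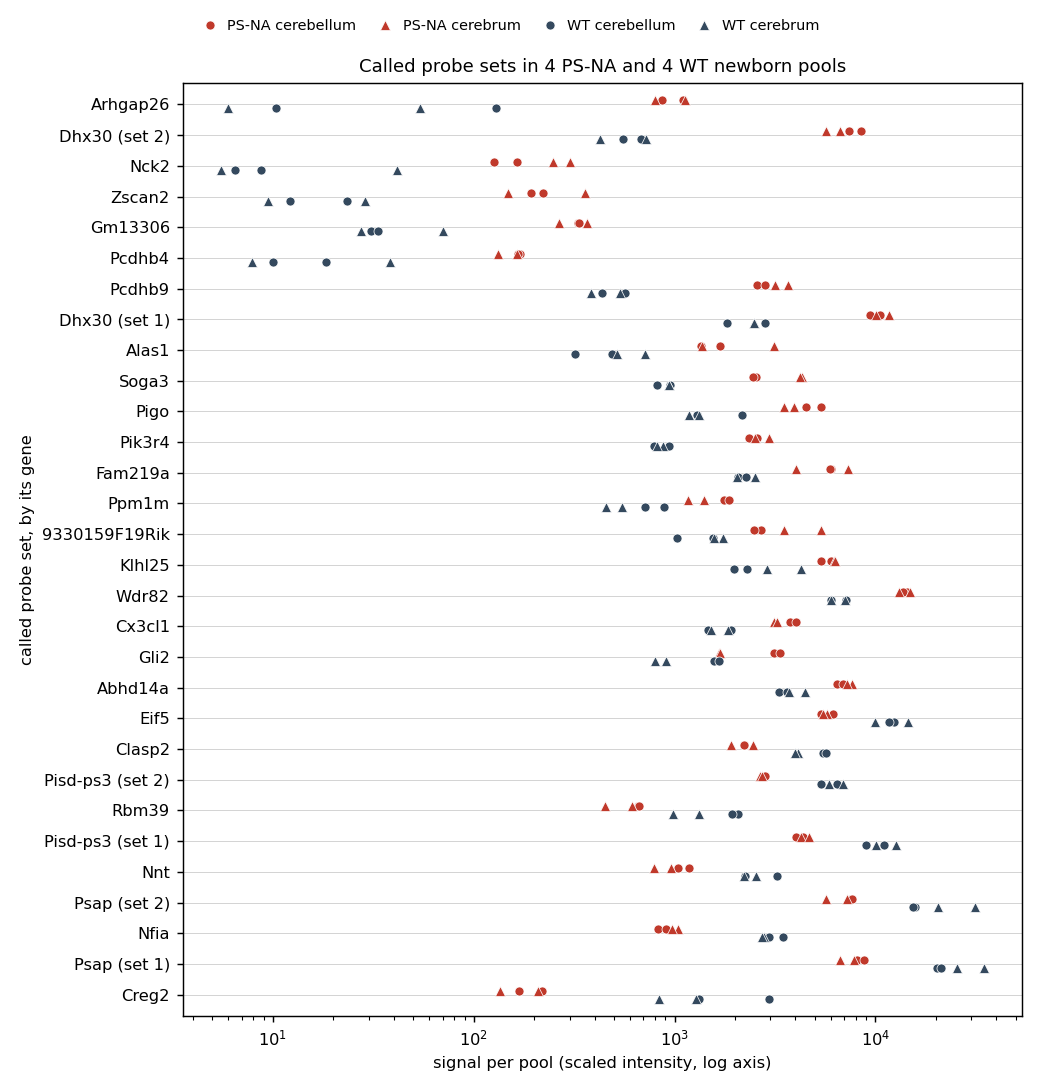
Signal of each pool (scaled intensity, log axis) for the 30 called probe sets with 1 gene symbol, ordered by log2 fold change. Circles are cerebellar and triangles cerebral pools, PS-NA in red and WT in dark blue, and a second probe set of a gene is numbered. The 2 genotypes are apart for all of them, with the smallest gap for Gli2, where the lowest PS-NA pool has 1669 and the highest WT pool 1663.

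Psap was lower in every PS-NA pool. Its brightest probe set had signals of 8095 and 8758 in PS-NA cerebella and 6639 and 7844 in PS-NA cerebra, against 20314 and 21222 in WT cerebella and 25474 and 34845 in WT cerebra. The log2 difference was -1.71 ± 0.17 (SE, adjusted p = 0.00273), 3.28-fold lower in PS-NA, and the other Psap probe set gave -1.54 ± 0.21. The deficit was -1.32 ± 0.18 in cerebellum and -2.10 ± 0.18 in cerebrum, and the difference between the regions did not pass the test across all probe sets (0.78 ± 0.26 on the log2 scale, adjusted p = 1). In PS-/- newborns Psap had signals of 386 to 816 in the 4 pools, below all 4 PS-NA pools. At later ages PS-NA pools had 3685 to 10884, while WT pools had 42942 to 54680, so the log2 difference was -3.07 ± 0.23 at 4 wks, -3.01 ± 0.23 at 12 wks and -2.79 ± 0.16 at 18 wks. WT signals at birth were below all WT signals of the later ages, and those of PS-NA pools were not. The change of the deficit with age was not tested.

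Creg2, Nfia and Clasp2 were the called genes for which the study designed RT-PCR primers, and their sequences are given, 5′ to 3′, because with them the study measured these genes again in the pooled RNA.
Creg2 forward: gctgcagaatcctttttttatttgac
Creg2 reverse: atacctctaacaaagccaccctataatt
Nfia forward: gggtttctgtaaaggaactcgattt
Nfia reverse: gctgggactttcagattgacttg
Clasp2 forward: cctgcagagcccgtctgt
Clasp2 reverse: aagccacatctcagtcaactcact

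Creg2, which encodes a secreted glycoprotein of the brain, was the most reduced named gene. The PS-NA signals were 218 and 167 for cerebella and 208 and 135 for cerebra. In WT they were 2949 and 1316 for cerebella, then 1281 and 838 for cerebra. The lowest WT pool was thus above the highest PS-NA pool in both regions, and the WT cerebellar pools differed most from each other. The log2 difference was -2.67 ± 0.30 (SE, adjusted p = 0.00684), or 6.37-fold.

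Nfia, a transcription factor of the nuclear factor I family that is needed for glial development, was lower at 1 of its 6 probe sets. There PS-NA pools had 830, 909, 1040 and 971 and WT pools 3486, 2962, 2780 and 2714, with cerebella given first, and the log2 difference was -1.60 ± 0.15 (adjusted p = 0.00237). The brightest Nfia probe set, with a mean signal of 8570, had a difference of -0.14 ± 0.25 (adjusted p = 0.87), and its PS-NA and WT pools overlapped. The other 4 sets had -0.79 to -0.02 and none was called.

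Clasp2, which encodes a protein that binds growing microtubule ends, was called at a probe set with signals of 2230, 2221, 1908 and 2448 in PS-NA and 5471, 5697, 4140 and 3985 in WT pools. The log2 difference was -1.11 ± 0.14 (adjusted p = 0.0178). The brightest Clasp2 set, at 10260 to 12311 in PS-NA and 16453 to 23571 in WT pools, did not overlap between the genotypes and had -0.77 ± 0.12 (adjusted p = 0.0646). A set near the lowest signals, with a mean of 32.3, had the opposite sign (1.56 ± 0.44, adjusted p = 0.313).

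Among the remaining reduced genes, Nnt encodes the transhydrogenase of the mitochondrial inner membrane that supplies NADPH. It had 1187, 1040, 788 and 956 in PS-NA and 2240, 3224, 2547 and 2212 in WT pools at the called set (-1.30 ± 0.17), and its brightest set had -0.90 ± 0.17 (adjusted p = 0.132). Rbm39, an RNA-binding splicing factor, was called at 1 of 12 sets (-1.27 ± 0.19), while its brightest set had 0.32 ± 0.25. Eif5, a factor of translation initiation, had all 5 sets below 0, from -1.08 to -0.43, with 1 called. Pisd-ps3, a pseudogene of phosphatidylserine decarboxylase, was lower at 2 sets (-1.29 ± 0.13 and -1.16 ± 0.12). The signal of a pseudogene cannot be told apart from that of its parent gene, so the Pisd-ps3 values are uncertain as to their source.

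Dhx30, an RNA helicase needed for assembly of the mitochondrial ribosome, had the smallest adjusted p among the raised genes. At the called set with the larger difference, the PS-NA signals were 7358 and 8436 for cerebella, then 5646 and 6679 for cerebra, whereas WT pools had 554, 682, 423 and 720. All PS-NA pools were several fold above all WT pools, and the log2 difference was 3.47 ± 0.19 (adjusted p = 5.64e-05), or 11.1-fold. The second called set had 9450 to 11664 in PS-NA and 1818 to 2811 in WT pools (2.10 ± 0.15, adjusted p = 0.00039). The brightest set of the gene, with a mean signal of 8137, had only 0.43 ± 0.16 (adjusted p = 0.382), and the remaining set had -0.37 ± 0.39. Both called sets belong to the class whose probes can match other transcripts.

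Arhgap26, a GTPase-activating protein, had the largest fitted difference. PS-NA pools had 1107, 870, 802 and 1122, and WT pools had 129, 10.4, 6 and 54.3. The groups were far apart, but the WT signals lay at the bottom of the scale, where the added 16 sets the size of the log2 difference (4.30 ± 0.56, adjusted p = 0.0178). Its 3 other sets had -0.07 to 0.39 and none was called. Nck2, an adaptor protein that links receptor tyrosine kinases to actin, had the same form, with 126 to 303 in PS-NA and 5.5 to 41.3 in WT pools at the called set (3.14 ± 0.39) and -0.38 ± 0.16 at its brightest set.

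Clustered protocadherins are neuronal adhesion proteins encoded by a tandem gene family. Pcdhb9 had 2573 and 2810 in PS-NA cerebella and 3666 and 3174 in PS-NA cerebra, against 436 and 568 in WT cerebella and 537 and 382 in WT cerebra. No WT pool came near the PS-NA pools (2.56 ± 0.17, adjusted p = 0.000252, 5.91-fold). Pcdhb4 had 133 to 170 against 7.9 to 38.2 (2.67 ± 0.39), and its brightest set, not called, had 1.43. Members of this family are close in sequence, so their signals may be shared.

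Pik3r4, the regulatory subunit of the class III phosphatidylinositol kinase complex that acts in autophagy and endosomal sorting, had 2569, 2354, 2504 and 2940 in PS-NA and 793, 943, 879 and 815 in WT pools. All PS-NA pools were above all WT pools (1.52 ± 0.15, adjusted p = 0.00273), and the gene had no other set, this one being of the class shared by a gene family. Pigo, an enzyme of glycosylphosphatidylinositol anchor synthesis, had 3511 to 5333 against 1184 to 2178 (1.52 ± 0.18, adjusted p = 0.00908).

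Wdr82, a subunit of histone methyltransferase complexes, had 13099 to 14944 in PS-NA and 5988 to 7133 in WT pools (1.07 ± 0.12, adjusted p = 0.00691). Soga3 had 2544 and 2458 in PS-NA cerebella and 4330 and 4223 in PS-NA cerebra, and 822 to 946 in the 4 WT pools (1.78 ± 0.16, adjusted p = 0.00185). Alas1, the rate-limiting enzyme of heme synthesis, was called at the dimmer of its sets (1.80 ± 0.27) and had 0.51 ± 0.15 at the brighter.

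Cx3cl1, the neuronal chemokine fractalkine whose receptor is carried by microglia, had 3743, 4039, 3133 and 3230 in PS-NA and 1471, 1920, 1517 and 1850 in WT pools (1.03 ± 0.15, adjusted p = 0.0407). Its brightest set had 0.77 ± 0.16 without a call, and Cx3cr1, the receptor gene, had 0.00 ± 0.21. Gli2, a transcription factor of the Hedgehog pathway that drives granule cell precursors in cerebellum, had 3125 and 3355 in PS-NA cerebella against 1566 and 1663 in WT cerebella, and 1669 and 1678 against 802 and 910 in cerebra. Within each region the genotypes were apart, but Gli2 was about as high in WT cerebella as in PS-NA cerebra, and after normalization the 8 pools overlapped (0.94 ± 0.14, adjusted p = 0.0437).

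The remaining named genes with a called set that was higher were Zscan2 (3.04 ± 0.40), Gm13306 (2.79 ± 0.36), Fam219a (1.34 ± 0.18), Ppm1m (1.20 ± 0.17), 9330159F19Rik (1.18 ± 0.18), Klhl25 (1.12 ± 0.17) and Abhd14a (0.90 ± 0.12). The brightest set of 9330159F19Rik went the other way without a call (-0.66 ± 0.18, adjusted p = 0.291). Gm13306, a predicted gene, had 266 to 366 in PS-NA and 27.4 to 70.1 in WT pools, and Zscan2, a zinc finger gene, had 148 to 357 and 9.5 to 28.8. Of the 28 raised probe sets, 7 had a mean WT signal under 100, and none of the 12 lowered ones did.

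**Figure D2:**
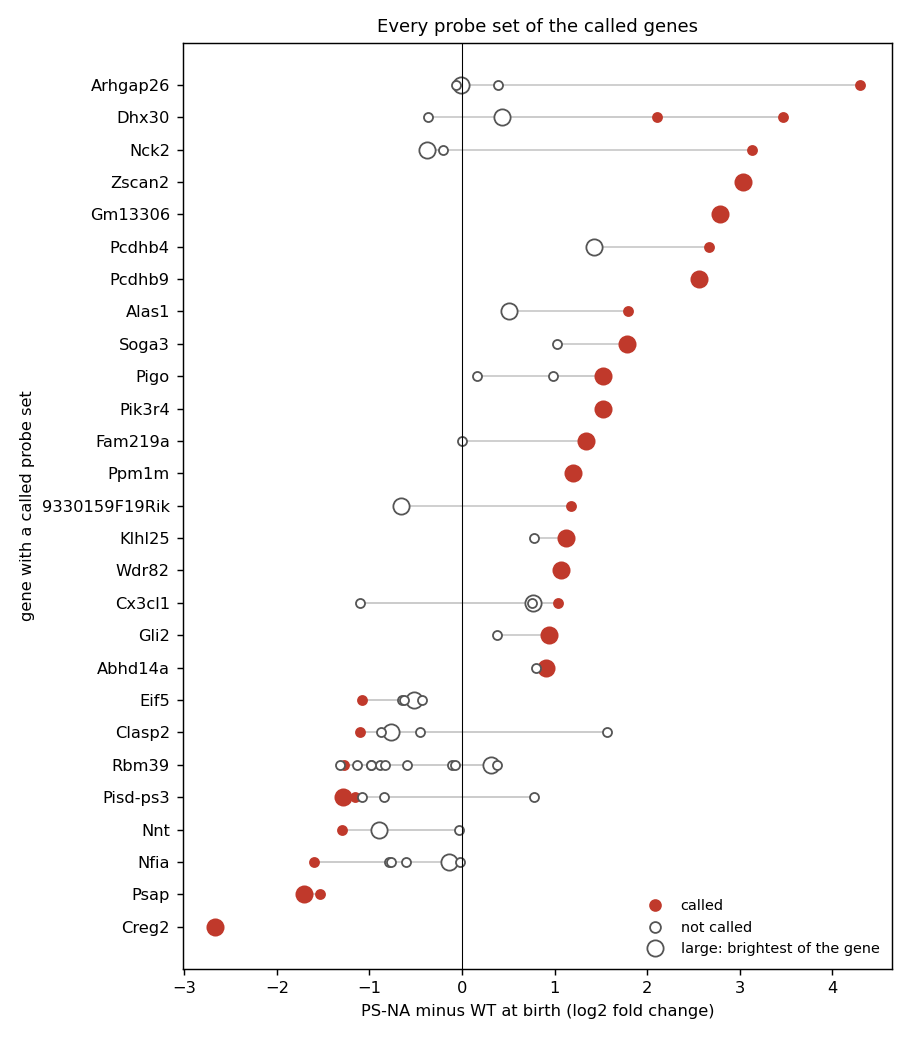
PS-NA minus WT log2 fold change at birth of every probe set of the 27 called genes. Filled points were called at an adjusted p under 0.05, open points were not, and the large point is the brightest probe set of the gene. For Arhgap26, Dhx30 and Nck2 the large point lies near 0 while called sets lie at 2.10 to 4.30.

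Probe sets of 1 gene often disagreed. Of the 27 called genes, 20 had more than 1 probe set, 3 had more than 1 called, and 9 had at least 1 set of the opposite sign. The 3 were Psap, Pisd-ps3 and Dhx30. Called sets were also of other kinds than the array at large. The suffix of a probe set name gives its design, and 11 of the 40 called (27.5%) were of the class that matches several transcripts of 1 gene, against 9.83% of all tested. A further 6 (15%, against 5.42%) were of the class in which some probes match unrelated transcripts, and 3 (7.5%, against 4.64%) of the class shared by a gene family.

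All 40 called probe sets had the same sign in cerebellum and cerebrum, which the fit with region as a term favours. In cerebellum alone 1 probe set was called (0.00222% of those tested, with 8.89% at an unadjusted p under 0.05 in limma), the larger Dhx30 set, at 3.63 ± 0.28. In cerebrum alone there were 8 (0.0178%, with 4.25% at that level), 6 higher (0.0133%) and 2 lower (0.00444%), namely both Dhx30 sets, both Psap sets, Pcdhb9, Soga3 and 2 without a single symbol. In cerebrum Dhx30 had 3.31 ± 0.28, Pcdhb9 2.71 ± 0.25 and Soga3 2.08 ± 0.20. With 2 pools a side the median SE was 0.453 in either region and 0.316 over both, so that a 2-fold difference in 1 region was within reach only for sets of small spread.

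**Figure D3:**
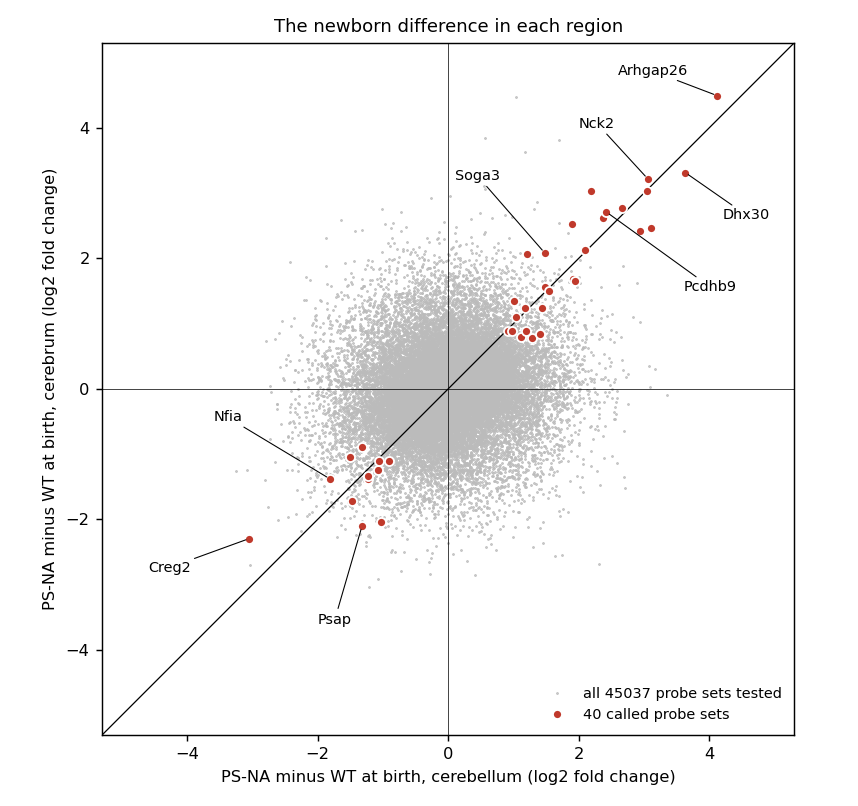
PS-NA minus WT log2 fold change at birth in cerebellum (horizontal) and cerebrum (vertical) for all 45037 probe sets tested (grey) and the 40 called ones (red), with the line of equality. The called sets lie near the line, from Creg2 at the lower left to Arhgap26 at the upper right, and the Psap sets lie below it.

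The difference between the regions in the PS-NA effect was called for no probe set (0%), with 1473 at an unadjusted p under 0.05 (3.27%) in limma. Of the 10 genes with the smallest p, 5 for each direction, the brightest was Golm1, a Golgi membrane protein with a mean signal of 1866. It had 1537 and 1315 in PS-NA and 2577 and 2342 in WT cerebella, and 2179 and 2017 in PS-NA and 1502 and 1462 in WT cerebra. Its pools were lower in PS-NA cerebella and higher in PS-NA cerebra, and the difference of the effects was -1.22 ± 0.29 (adjusted p = 1). The others, among them Ttc36 (4.29 ± 0.77) and Ankrd61 (-3.44 ± 0.70), had mean signals of 39.1 to 113.

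The called genes lay in groups along the chromosomes. This window was chosen after the values were seen, and positions were taken only as the order of measured genes in the RefSeq annotation of assembly GRCm38.p6, since the array files name no build, and a neighbour was counted within 100 measured genes on either side. Of 26 called genes with a place, 19 (73.1%) had another called gene among their neighbours, while 14.9% of all 18030 placed genes had a called gene there. Chromosome 9 held 7 of the 26 (26.9%, against 5.56% of measured genes). These were Pik3r4, Wdr82, Ppm1m, Alas1, Abhd14a, Dhx30 and Clasp2, 6 of which were higher and 1 lower. Wdr82 and Ppm1m were adjacent, Alas1 was 3 genes and Abhd14a 4 genes from the nearest called gene, and Dhx30 and Clasp2 were 36 genes apart.

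On chromosome 4, Gm13306 and Pigo were 6 genes apart and Fam219a 8 from the nearer of them, all higher, and Nfia, which was lower, was 246 genes away. On chromosome 18, Pcdhb4 and Pcdhb9 were 5 genes apart and Arhgap26 31 genes from the nearer one. Creg2 and Nck2 on chromosome 1 were 20 genes apart and went in opposite directions, and Klhl25 and Zscan2 on chromosome 7 were 44 apart and both higher. Psap itself lies on chromosome 10, and none of the 200 measured genes nearest to it was called, while 1 passed the looser thresholds (Eif4ebp2, 0.75, adjusted p = 0.122, 14 genes away). Soga3 and 9330159F19Rik, adjacent on the same chromosome, were 144 measured genes from Psap. At the looser thresholds 67 of 96 placed genes (69.8%) had a neighbour that passed, against 52.1% of all placed genes.

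Most of the newborn differences were found again at later ages, in other mice and on other arrays. With the 2 Psap sets left out, 38 probe sets called at birth were followed. At 4 wks 37 of the 38 had the same sign as at birth, against 60.1% of all probe sets tested, and 26 were called with that sign, at an age when 3.44% of all were called (1.97% higher, 1.47% lower). At 12 wks the sign was kept by 33 (40.8% of all tested) and 16 were called (0.226% of all, 0.182% higher and 0.0444% lower), and at 18 wks by 33 (52.7%) and 21 were called (0.464%, 0.349% higher and 0.115% lower). None was called with the opposite sign at any of these ages. All 3 later ages had the sign of birth for 32 sets, 15 were called at all 3, and 10 at none.

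**Figure D4:**
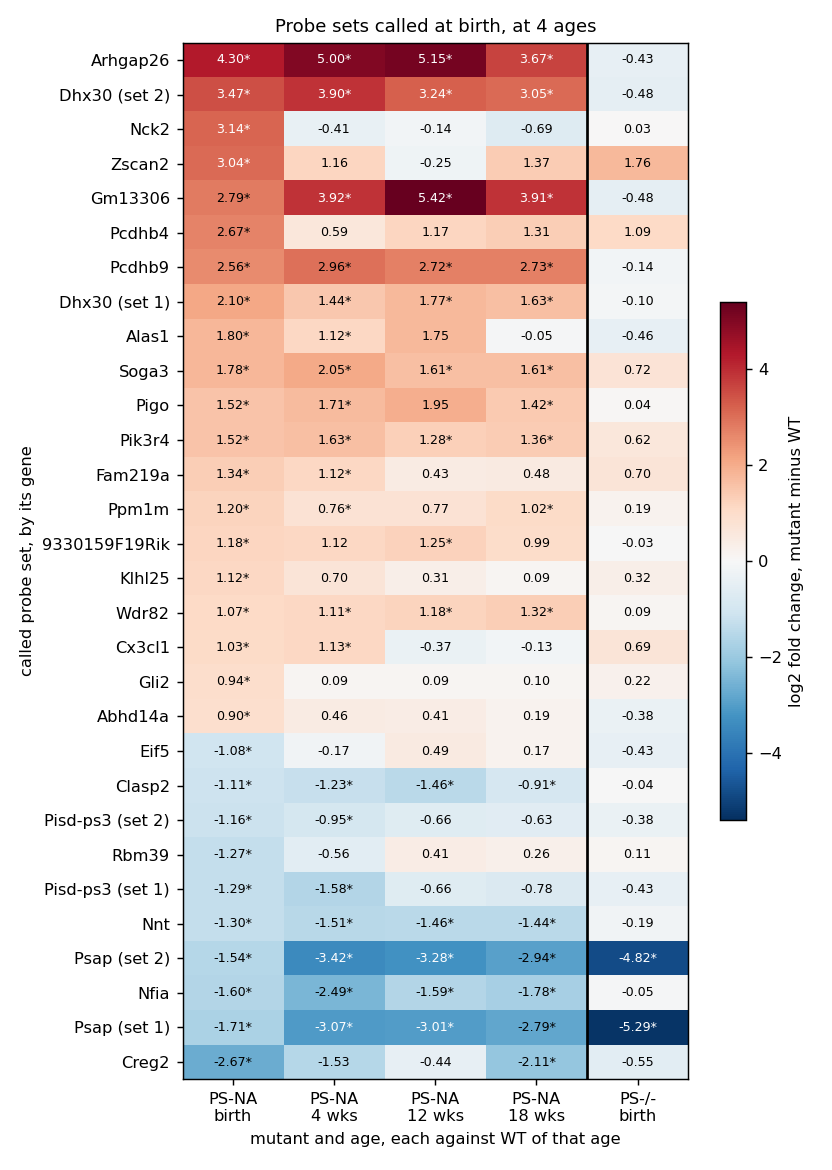
Log2 fold change against WT of the same age for the 30 named probe sets called at birth, in PS-NA brain at birth, 4, 12 and 18 wks and, right of the line, in PS-/- brain at birth. A star marks an adjusted p under 0.05, and PS-/- and PS-NA newborns share the same WT pools. Arhgap26, Dhx30, Gm13306 and Pcdhb9 stay dark red over the 4 ages, while Nck2, Gli2, Rbm39 and Eif5 carry no star after birth.

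Among the genes called at birth and at all 3 later ages were Pcdhb9, Dhx30, Arhgap26 and Nfia. Pcdhb9 had signals of 2169 to 3317 in the 12 PS-NA pools and 281 to 512 in the 12 WT pools of 4 to 18 wks, with log2 differences of 2.96 ± 0.18, 2.72 ± 0.17 and 2.73 ± 0.24. Dhx30, at its larger set, had 3.90 ± 0.41, 3.24 ± 0.41 and 3.05 ± 0.21, and Arhgap26 had 1343 to 4202 in PS-NA and 30.7 to 123 in WT pools at 4 wks, with log2 differences of 5.15 ± 0.57 at 12 wks and 3.67 ± 0.32 at 18 wks. Nfia had -2.49 ± 0.17, -1.59 ± 0.19 and -1.78 ± 0.23 at the set called at birth.

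Clasp2, Nnt, Wdr82, Soga3 and Pik3r4 were also called at all 3 later ages with their newborn sign. Creg2 was called at 18 wks (-2.11 ± 0.24) and not at 4 wks (-1.53 ± 0.41) or 12 wks (-0.44 ± 0.27). Gm13306 was higher at all 3 ages, with 404 to 3412 in PS-NA and 12.2 to 144 in WT pools. Its log2 difference at 12 wks was 5.42 ± 0.34.

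Other differences were seen at birth and not called later. Nck2 had -0.41 ± 0.39, -0.14 ± 0.50 and -0.69 ± 0.51 at 4, 12 and 18 wks, with 2.5 to 54.6 in PS-NA and 6.9 to 139 in WT pools. Gli2 had 0.09 ± 0.23, 0.09 ± 0.32 and 0.10 ± 0.22, Rbm39 -0.56 ± 0.22, 0.41 ± 0.22 and 0.26 ± 0.30, and Eif5 -0.17 ± 0.15, 0.49 ± 0.17 and 0.17 ± 0.17. Cx3cl1 was called at 4 wks (1.13 ± 0.23) and had -0.37 ± 0.20 and -0.13 ± 0.12 thereafter. Whether these effects differed between birth and a later age was not tested.

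PS-/- newborns, which lack prosaposin altogether, were read against the same 4 WT pools. Of all probe sets, 2 were called in them (0.00444%), both of Psap, with 5567 at an unadjusted p under 0.05 in limma (12.4%). Because the WT pools are shared, the values are given side by side. Dhx30 had -0.48 ± 0.27 in PS-/- and 3.47 ± 0.19 in PS-NA newborns, Pcdhb9 -0.14 ± 0.26 and 2.56 ± 0.17, Arhgap26 -0.43 ± 0.70 and 4.30 ± 0.56, and Nfia -0.05 ± 0.16 and -1.60 ± 0.15. These are among the genes for which PS-/- pools were close to WT. Others lay on the PS-NA side of WT in PS-/- newborns without a call, as Fam219a (0.70 ± 0.14 in PS-/- and 1.34 ± 0.18 in PS-NA), Cx3cl1 (0.69 ± 0.17 and 1.03 ± 0.15), Pik3r4 (0.62 ± 0.19 and 1.52 ± 0.15) and Zscan2 (1.76 ± 0.56 and 3.04 ± 0.40).

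In signal, Pcdhb9 had 293 to 500 and Dhx30 299 to 594 in the 4 PS-/- pools, both below every PS-NA pool. Creg2 had 485 to 1594, above every PS-NA pool, and a log2 difference from WT of -0.55 ± 0.26 (adjusted p = 0.414). Soga3 had 1125 to 2144, between WT and PS-NA (0.72 ± 0.23 from WT, adjusted p = 0.25). A direct comparison of PS-NA with PS-/- newborns called 2151 probe sets (4.78%, with 2.36% higher, 2.41% lower and 19.7% at an unadjusted p under 0.05), and among them were Dhx30 (3.95 ± 0.18), Pcdhb9 (2.70 ± 0.18), Creg2 (-2.12 ± 0.26), Nfia (-1.55 ± 0.12) and Soga3 (1.06 ± 0.20). This count fell to 804 without the first PS-NA cerebellar pool. Since calls depend on the spread between the pools compared, this count and those against WT do not rank the sizes of the differences.

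In the prosaposin pathway itself Psap was the one gene called. Of 12 measured saposins' partner hydrolases and activators, Psap was the only one at an unadjusted p under 0.05, and the median log2 difference of the list was -0.01, beside 0.05 over all genes. Of 25 genes of sphingolipid synthesis none reached an unadjusted p under 0.05, and the median was 0.06. Among 41 lysosomal genes 4 were higher and 1 lower at that level, 9.76% and 2.44% of the list against 7.46% and 4.29% of all genes, and none was called. Man2b1, lysosomal alpha-mannosidase, had 0.41 ± 0.14, Gaa, acid alpha-glucosidase, 0.41 ± 0.15, and Lipa, lysosomal acid lipase, -0.40 ± 0.14, each with overlapping pools over both regions. Within each region the Man2b1 pools were apart. PS-NA cerebella had 3681 and 3759 against 2290 and 2808, and PS-NA cerebra 2602 and 2792 against 2215 and 2203. Hexa, the alpha subunit of beta-hexosaminidase, had -0.20 ± 0.13 and Gusb, beta-glucuronidase, 0.28 ± 0.17.

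Microglial and other glial genes of the lists were not called at birth. Of 25 measured microglial genes 7 (28%) were higher at an unadjusted p under 0.05 and none lower, the members with the smallest p being Sall1 (0.42 ± 0.14), a transcription factor that maintains microglial identity, and Olfml3 (0.57 ± 0.21). The list's median was 0.41 in cerebellum and 0.05 in cerebrum. The summed signal of the list was 47756 to 52616 in PS-NA and 30158 to 46598 in WT cerebella, and 39298 to 43915 and 31883 to 38552 in cerebra, without overlap in either region. Such sums were above WT without overlap for 13 of 32 lists in cerebellum and 15 of 32 in cerebrum, and below WT for 1 and 2. Its defining members were close to WT, with Cx3cr1 at 0.00 ± 0.21, P2ry12 at 0.16 ± 0.23 and Tmem119 at 0.08 ± 0.23, while Csf1r, the receptor on which microglia depend, had 0.46 ± 0.18 (adjusted p = 0.409). The part of microglial number in the other results was not tested. In whole tissue, fewer cells of a type and less RNA per cell cannot be told apart.

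Among 21 astrocyte and radial glia genes 5 were higher (23.8%) and 2 lower (9.52%) at that level, against 7.46% and 4.29% of all genes. Over the alternative fits the defining genes Slc1a3 and Aqp4 had -0.32 to -0.14 and -0.43 to -0.003. Fabp7 had -0.22 to 0.19 and Aldoc -0.15 to 0.15 there, and none of them was called. Gfap, the intermediate filament of astrocytes, had 3429 and 2600 in PS-NA and 1174 and 1426 in WT cerebella, and 2597 and 2374 in PS-NA and 1430 and 3027 in WT cerebra. The cerebella were apart and the cerebra overlapped (0.70 ± 0.26, adjusted p = 0.384). Slc1a2, the main glutamate transporter of astrocytes, was lower in all PS-NA pools (-0.43 ± 0.14, adjusted p = 0.355) without a call.

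In the oligodendrocyte lineage Sox10, a transcription factor of the lineage, had 2293 and 2649 in PS-NA and 715 and 1366 in WT cerebella, and 1456 and 1318 in PS-NA and 652 and 760 in WT cerebra. Within each region the PS-NA pools were higher, but the adjusted p was 0.178 (1.09 ± 0.22). Mbp, a structural protein of myelin, had 0.19 ± 0.23 and Olig2 0.37 ± 0.16. Enpp6, an enzyme of newly formed oligodendrocytes, had 3.9 to 21.3 in PS-NA and 72.6 to 179 in WT pools (-2.03 ± 0.44, adjusted p = 0.21).

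**Figure D5:**
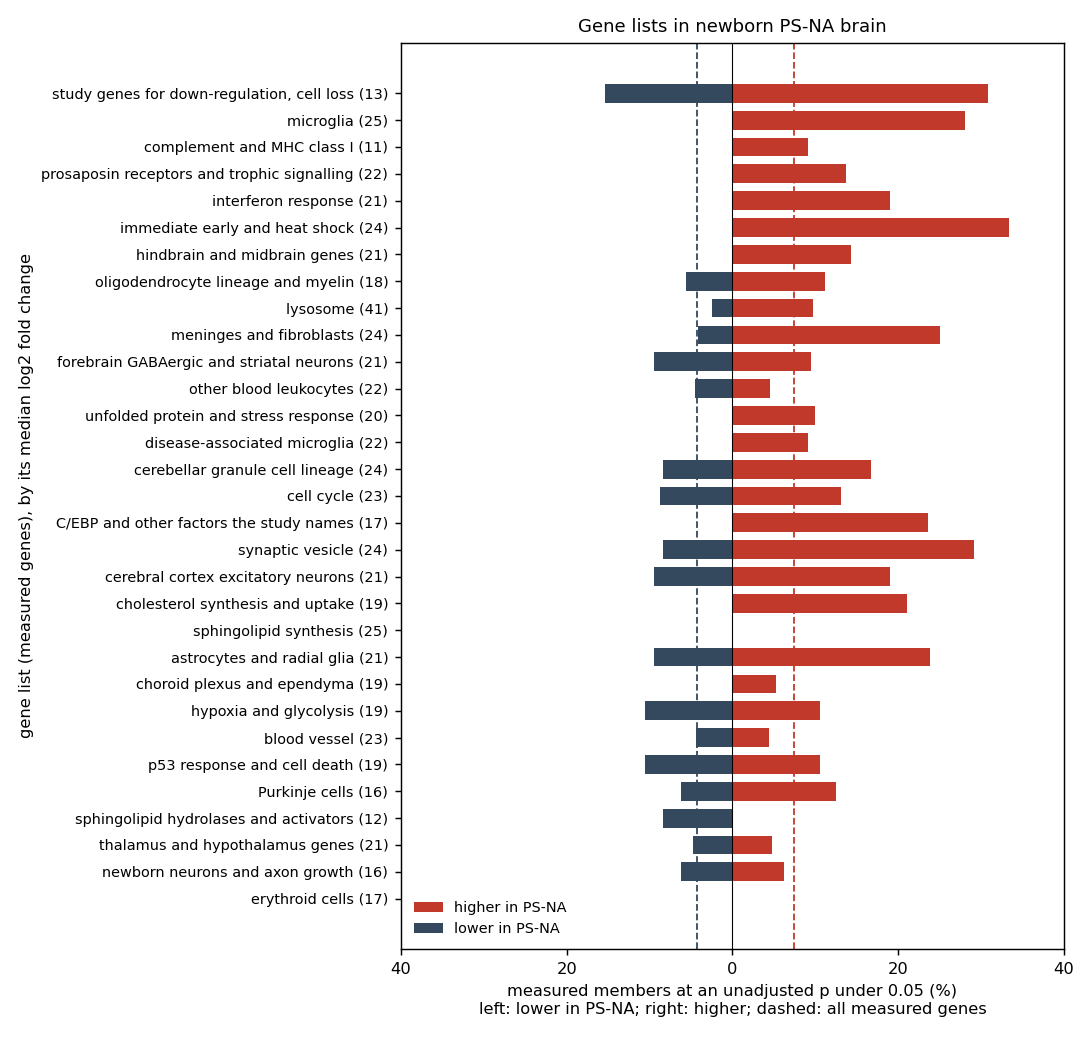
Share of the measured members of each gene list (number in brackets) that were higher (red, right) or lower (dark blue, left) in PS-NA pools at an unadjusted p under 0.05, ordered by the list's median log2 difference. Dashed lines mark the shares over all genes, 7.46% higher and 4.29% lower. The longest red bars are those of the immediate early and heat shock genes (8 of 24) and of a list taken from the study (4 of 13), and no bar stands for genes called after adjustment.

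Synaptic vesicle genes held 7 higher and 2 lower of 24 at that level. Syn1, which encodes synapsin I, had 20208 and 22502 in PS-NA and 10097 and 10996 in WT cerebella, and 15366 and 17680 in PS-NA and 7920 and 11866 in WT cerebra. All PS-NA pools were above all WT pools, and the gene just missed the threshold (0.85 ± 0.14, adjusted p = 0.0676). Cplx2, a regulator of vesicle fusion, was lower in all PS-NA pools (-0.80 ± 0.17, adjusted p = 0.21), and Dnm1, the dynamin of synaptic vesicle endocytosis, had 0.46 ± 0.12 (adjusted p = 0.27).

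Immediate early and heat shock genes, which respond to neuronal activity and to handling, had 8 of 24 higher (33.3%) and none lower, with none called. Fos had 0.49 ± 0.16, Fosb 1.32 ± 0.44 and Hspa1b 0.47 ± 0.16, and the list's median was 0.19. The meningeal and fibroblast list had 6 of 24 higher and 1 lower, and its summed signal was 76567 to 77035 in PS-NA and 57006 to 61728 in WT cerebra, without overlap, but 89147 to 93668 and 78039 to 98021 in cerebella. Col1a1, a collagen of these cells, had 0.60 ± 0.17, Pcolce, which aids collagen processing, 0.64 ± 0.21 and Slc6a13 0.70 ± 0.25. The sums for choroid plexus (87661 to 93175 against 79748 to 83084) and blood vessel genes (53441 to 54725 against 48109 to 48149) were also apart in cerebrum. Those for choroid plexus were apart in cerebellum too (88584 to 94628 against 82444 to 83907). Sums above WT without overlap were common, at 15 of 32 lists in cerebrum and 13 of 32 in cerebellum. Of 19 choroid plexus and ependyma genes, 1 was higher and 0 were lower at an unadjusted p under 0.05. The part of these tissues in the other results was not tested. Of 17 erythroid genes none reached that level in either direction.

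The genes that the study follows at later ages were mostly not called at birth. Cebpd, a CCAAT/enhancer-binding protein, had 766, 755, 1141 and 735 in PS-NA and 943, 851, 751 and 825 in WT pools, with a log2 difference of 0.00 ± 0.20. In signal both PS-NA cerebellar pools were below both WT ones (-0.19 ± 0.28 in the cerebellar contrast), while the cerebral pools overlapped. Cebpb had 0.26 ± 0.20, Lgals3, which encodes galectin, 0.23 ± 0.22, and C1qa, a complement component, 0.27 ± 0.22. The chemokine gene Ccl3 had 281 to 493 in PS-NA and 124 to 259 in WT pools (1.09 ± 0.35, adjusted p = 0.352), without overlap and without a call. Calb1 and Pcp2, genes of Purkinje cells, had 0.05 ± 0.16 and 0.60 ± 0.23 (adjusted p = 0.399).

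A chosen set of genes, with those the study names among them, was read by brightest probe sets. Of these genes, 5 differed by more than 1 on the log2 scale without a call at birth. Bfsp2, L3hypdh, Clec3b and Ddo are not named in the study's main text. The share of all genes with such a difference was not counted, so the 5 are given as single values. Ccl3, given above, and Bfsp2, a lens filament gene (1.08 ± 0.35, adjusted p = 0.355), were higher and did not overlap. The other 3 were lower, of which L3hypdh, an enzyme of hydroxyproline breakdown, had -1.85 ± 0.31 (adjusted p = 0.0716), Clec3b, which encodes tetranectin, -1.22 ± 0.23 (adjusted p = 0.123), and Ddo, D-aspartate oxidase, -1.58 ± 0.44 (adjusted p = 0.311). Clec3b pools of the 2 genotypes did not overlap, with 621 and 547 in PS-NA against 2261 and 1162 in WT cerebella and 284 and 318 against 737 and 636 in cerebra. It was called at 4 wks (-2.40, adjusted p = 0.00361). Ddo was called at 4 wks (-2.93, adjusted p = 0.001) and 12 wks (-2.29, adjusted p = 0.0405). Bfsp2 was called at 4 wks (2.05, adjusted p = 0.0356) and 18 wks (2.17, adjusted p = 0.0147), and Ccl3 at 18 wks (2.23, adjusted p = 0.0174). L3hypdh was called at none of the later ages.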

How the data were processed

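Cerebella and cerebra were pooled from 3 mice per array, labelled with biotin and hybridized to Affymetrix Mouse Genome 430 2.0 arrays. The intensity values analysed are the signals the authors deposited, made with GCOS 1.1 according to the submitters' processing notes and scaled so that the mean of each array, with 2% trimmed at each end, is 1500. The RMA values described in the study's methods could not be remade from these signals, and no detection calls were used.

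The 64 control sets were left out, 16 was added to each signal, and log2 values were quantile normalized over the 68 arrays, leaving 45037 probe sets. A fold change is therefore on the log2(signal + 16) scale, which understates changes of dim probe sets, and every ± in the report is a standard error. PS-NA and WT pools were compared by limma 3.58.1 (statmod 1.5.0, R 4.3.3) with an intensity trend and region as a term (5 residual degrees of freedom, 4 where each region had its own effect), with Benjamini-Hochberg adjustment over all probe sets. The study's methods fitted a mixed model with subject as a random term to RMA values of all ages, which was not repeated. A fit to the 8 newborn arrays with subject as a random term in limma was run as an alternative. The number of arrays limits the precision.

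The platform annotation gave 1 symbol to 34958 probe sets, several to 932 and none to 9211. Of the first, 34754 matched the RefSeq gene table, and 18193 genes were measured. The genes named are those called by their brightest probe set, the members of lists with the smallest p, defining markers, genes the study names, the genes with the smallest p for the region difference and, beyond that rule, 12 genes called by another set. The members and the 32 lists (712 entries, 645 measured) were chosen with earlier results of these data known.

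The procedure was tested on simulated data for PS-NA against WT newborns, with 200 of 45037 probe sets changed. It found 50% of 66 sets changed 4-fold, 22.4% of 67 changed 2-fold and none of 67 changed 1.5-fold, and called 2 unchanged sets. Alternatives were another added constant, median centring, normalization over 8 arrays, a filter on dim sets, other variance models, fits to 32 or 68 arrays, a replicate block, array weights, the actin ratio as a covariate and each pool left out. The Xist covariate and the mean of a gene's probe sets were added after seeing the data.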

Additional observations from a re-analysis of the deposited data

How the results depend on the processing

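Every alternative reused newborn arrays that chose the called sets, so a kept sign is no independent support. The called probe sets kept their sign in every alternative that tested them, all 40 except without dim sets, where 35 remained to be tested, but the number called did not hold. It was 40 as reported, 158 and 91 in fits to 32 and 68 arrays, 1311 with array weights, 17 with a random subject, 11 without the intensity trend, 4 with the actin ratio, 0 with an unmoderated model in limma's framework (4210 at an unadjusted p under 0.05), and 12 to 123 with 1 pool left out. At the looser thresholds 139 became 278 with median centring, 236 without dim sets, 78 without the trend, 44 unmoderated, 803 and 420 with 32 and 68 arrays, 57 with a random subject, 5006 with array weights, 8 with the actin ratio and 26 to 4077 with 1 pool left out. The single cerebellar call became 5 with an added constant of 1, 4 with median centring, 3 without dim sets, 0 without the trend, 4 unmoderated, 61 and 21 with 32 and 68 arrays, 5 with a random subject, 4 with weights, 0 with the actin ratio and 0 to 427 with 1 pool left out. The 8 cerebral calls became 0 without the trend, 0 unmoderated, 20 with 32 arrays, 16 with weights, 4 with the actin ratio and 0 to 17 with 1 pool left out. The difference between regions had 1 call with 32 arrays and 0 to 4 with 1 pool left out. The 15 genes called by their brightest set became 27 when any set counted and 10 with the mean of a gene's probe sets. With that mean Nfia and Pisd-ps3, which were called whichever pool was left out, lost their call. Clasp2, Nnt, Eif5, Pigo and Cx3cl1 were among the others that lost it. PS-NA against PS-/- newborns gave 804 to 2424 calls with 1 pool left out. The cause of these changes was not tested. Replicate numbers did not pair PS-NA with WT pools (correlations of deviations 0.0217 in cerebellum and -0.00822 in cerebrum). Between cerebellar and cerebral pools of 1 number the correlation was 0.244 in WT and 0.0344 in PS-NA, and the random subject had a consensus correlation of 0.231. A replicate block gave 59 calls, 39 of them among the 40, with 875 at the looser thresholds and 7 in cerebellum. With 2 pools per genotype and region, none of the simulated 1.5-fold, 22.4% of the 2-fold and 50% of the 4-fold changes were found. Most differences of 2-fold or less were thus beyond detection, and signals under 100 rest on the added constant.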

Other observations

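No member of the following lists, not described above, was called, and over all genes 7.46% were higher and 4.29% lower at an unadjusted p under 0.05 in limma, with a median of 0.05. Of 21 interferon response genes 4 (19%) were higher at that level and none lower, with a median log2 difference of 0.34 in cerebellum and 0.04 in cerebrum, and Ifih1, a sensor of double-stranded RNA, had 1.59. Of 19 genes of cholesterol synthesis and uptake 4 (21.1%) were higher, with a list median of 0.07. Of 22 prosaposin receptor and trophic signalling genes 3 were higher and none lower (median 0.23). Of 23 cell cycle genes 3 were higher and 2 lower, with a median of 0.37 in cerebellum and -0.09 in cerebrum, a difference that was not tested. Of 16 Purkinje cell genes 2 were higher and 1 lower (median 0.00), and of 19 p53 response and cell death genes 2 were higher and 2 lower (median 0.00).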
